A study of Mus musculus with 24 samples.

Results

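The miRNAs mmu-miR-193, mmu-miR-193b and mmu-miR-365 were followed in the lungs of c-Raf transgenic and wild type mice, as 3 of the 611 mouse miRNAs on the array. They were chosen by name as a family with its genomic neighbour, without their star forms, and they were taken up because an earlier analysis of these same arrays had shown a lower miR-193b intensity in c-Raf lungs. The values of c-Raf against WT are therefore a description for these members and carry no p-value, while sex differences and relations between arrays did not enter the choice. The arrays came from 4 groups of 6 mice, 1 mouse per array: wild type males (M WT), wild type females (F WT), and males and females carrying SP-C/c-raf (M c-Raf and F c-Raf). All animals were 4 to 6 months old. The transgene is a c-Raf-1 kinase made active by removal of its NH2-terminal part (c-Raf-1-BxB), and the surfactant protein C promoter directs it to the lung epithelium only. By the labels, RNA was taken from cells laser-dissected out of frozen lung sections, while another passage of the methods speaks of RNA from each lung, and the labels name the tissue lung adenocarcinoma for all arrays, wild type included. A miRNA array carries no spot for the transgene, so its expression was not checked here. Since the RNA came from a mixture of cells, fewer cells of a type and less RNA per cell cannot be told apart.

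A miRNA is a short RNA that guides the silencing machinery to messenger RNAs, mainly through its seed, the bases near its 5′ end. miR-193a and miR-193b are known to repress cell cycle and survival genes such as cyclin D1 and Mcl1 and the protease urokinase, and both are often found reduced in tumours. miR-365 is known to repress cyclin D1 and the lung transcription factor Nkx2-1, and miR-193b with miR-365 is known from the formation of brown fat.

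The mature sequences are shown because a common seed makes a pair of the members relatives. They are printed from the RefSeq table on build GRCm38.p6, 5′ to 3′, with the seed (bases 2 to 8) in capitals. All 3 array names were matched: the name mmu-miR-193 is an older name of mmu-miR-193a-3p, mmu-miR-193b corresponds to mmu-miR-193b-3p and mmu-miR-365 to mmu-miR-365-3p.
mmu-miR-193a-3p: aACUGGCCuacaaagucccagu
mmu-miR-193b-3p: aACUGGCCcacaaagucccgcu
mmu-miR-365-3p: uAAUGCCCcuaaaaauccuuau

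miR-193a-3p and miR-193b-3p share the seed ACUGGCC, and no other of the 1679 mature mouse miRNAs of the table has it. Counted from the 5′ end, miR-193b-3p differs from miR-193a-3p by U9C, A20G and G21C, and 19 of 22 bases are identical. The seed of miR-365-3p, AAUGCCC, is found in no other entry. Mir193b and Mir365-1 lie on chromosome 16, plus strand, at chr16:13449523-13449601 and chr16:13453840-13453926, with 4238 bases between their hairpins. In the RefSeq gene table both lie within the span of the long non-coding genes Gm32817 and Gm53058, and the nearest protein coding gene is Mrtfb. Mir193a and Mir365-2 lie on chromosome 11, plus strand, at chr11:79711969-79712034 and chr11:79726400-79726511, 14365 bases apart, outside any other annotated gene, and nearest to Rab11fip4. The hairpins of Mir365-1 and Mir365-2 are printed with mature miR-365-3p in capitals, since they differ around it but give the same mature sequence.
Mir365-1: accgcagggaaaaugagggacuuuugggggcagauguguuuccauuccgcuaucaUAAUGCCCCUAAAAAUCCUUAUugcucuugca
Mir365-2: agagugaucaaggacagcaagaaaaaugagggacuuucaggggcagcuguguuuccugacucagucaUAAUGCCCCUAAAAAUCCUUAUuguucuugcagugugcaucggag

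An array signal for mmu-miR-365 therefore belongs to chromosome 16, chromosome 11 or both, whereas the signals of mmu-miR-193b and mmu-miR-193 have separate origins.

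Levels are given as log2 of the spot intensity over the brightness of the array, taken as the 75th percentile among spots of those 27 miRNAs that no array failed to detect. Values below 0.01 were set to 0.01, a floor of -6.64 on the log2 scale. Brightness ran from 34.9 to 1212 intensity units, with the dimmest and the brightest array (replicates 6 and 4) both in the M c-Raf group, and in the number of mouse miRNAs detected, from 38 to 179. M c-Raf arrays had a median brightness of 433.1 units against 175.7 for M WT, and F c-Raf arrays 193.1 against 264.9 for F WT. The replicate number is the slide, and each slide held 1 array of every group, always at the same position, so position and group cannot be told apart. F WT replicate 5 stood apart from its group in 2 miRNAs that are not members: miR-127 was -3.15 and miR-146b -5.12 there, while both were at the floor on the other 5 F WT arrays and ranged from -4.98 to -3.93 and from -5.33 to -3.70 on the F c-Raf arrays. Female differences of the members are given with and without it. Of the epithelial markers, miR-200c and miR-200b were detected on all 24 arrays, and all 5 of the list on at least 1 array. The neuronal markers miR-124 and miR-9 were detected on none, the liver marker miR-122 on 2.

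The first question was which of the members the lung cells contained. miR-193b was detected on 22 of 24 arrays, on all but M c-Raf replicate 6 and F c-Raf replicate 2. miR-365 was detected on 12 arrays: 2 of 6 in M WT, 4 in M c-Raf, 3 in F WT and 3 in F c-Raf. mmu-miR-193 was detected on no array. None of its 480 spots was well above background, and its median lay at the floor on 22 arrays. The exceptions were M WT replicate 5 at -5.16 and M c-Raf replicate 6 at -6.40. No fold is given for miR-193, as every group was below background. The opposite arm of the same hairpin, mmu-miR-193*, was also detected on no array, with 1 of 480 spots well above background. It is the only star form of these hairpins on the array. So of the pair with a common seed, only the chromosome 16 member gave a signal above background.

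miR-193b was lower in c-Raf lungs of both sexes. In M WT the arrays of replicates 1 to 6 read -3.42, -3.19, -3.85, -3.16, -2.89 and -3.37. In M c-Raf they read -4.08, -4.47, -4.59, -3.97, -4.19 and -3.68. In 5 of 6 arrays M c-Raf lay below the whole M WT group, and the exception was replicate 6, the dimmest array of all, where miR-193b was not detected. The mean was -3.31 ± 0.32 (SD, n = 6) in M WT and -4.16 ± 0.33 (SD, n = 6) in M c-Raf, a difference of -0.85 (SE 0.25), or 1.80-fold lower. This size belongs to the median over all spots of miR-193b. Each of its 2 probes alone gave a smaller male difference, of -0.66 and -0.41.

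In F WT the arrays of replicates 1 to 6 read -3.28, -3.14, -3.57, -3.96, -3.47 and -2.85. In F c-Raf they read -3.73, -5.63, -4.51, -4.40, -4.10 and -4.19. Again 5 of 6 c-Raf arrays lay below all F WT arrays, with replicate 1 inside their range, and the lowest value was from replicate 2, where miR-193b was not detected. The mean was -3.38 ± 0.38 (SD, n = 6) in F WT and -4.43 ± 0.65 (SD, n = 6) in F c-Raf, a difference of -1.05 (SE 0.25), or 2.07-fold lower. Without F c-Raf replicate 2 it was -0.81, and without F WT replicate 5 it was -1.07. Over both sexes the difference was -0.95 (SE 0.18), while the median over the 120 miRNAs tested was 0.09. With all arrays, each probe alone gave a smaller female difference than the -1.05 of all spots, namely -0.73 and -0.38.

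**Figure D1:**
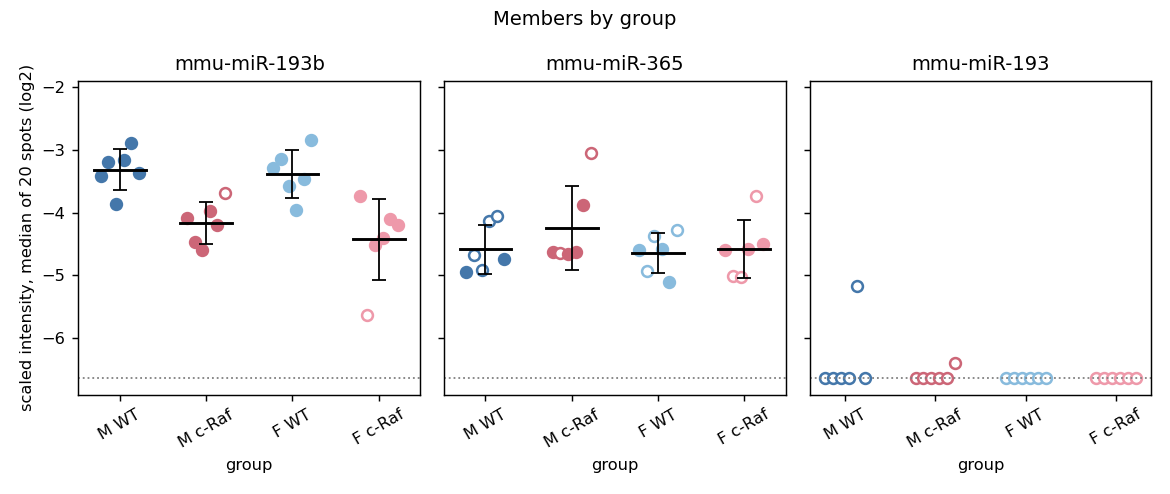
Scaled intensity (log2, y axis) of mmu-miR-193b, mmu-miR-365 and mmu-miR-193 on each of the 6 arrays of a group (x axis). Filled points were detected and open points were not, bars are the mean ± SD (not drawn for mmu-miR-193), and the dotted line is the floor at -6.64. The c-Raf groups of miR-193b centre at -4.16 and -4.43 against -3.31 and -3.38 in WT, those of miR-365 stay near their WT groups, and miR-193 lies at the floor on 22 arrays.

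Each member was spotted with 2 probes of 10 spots each, and the probes of miR-193b were unlike. One probe was well above background in 203 of its 240 spots over all arrays and the other in 38, with 80 of its spots at the floor. The median over all 20 spots falls between the spots of both probes, so it was followed by a look at each probe alone, chosen after the values were seen. With the brighter probe the M WT arrays read -2.63, -2.47, -2.82, -2.27, -2.63 and -2.62, and the M c-Raf arrays -2.95, -3.34, -3.50, -3.14, -3.28 and -3.21. These groups did not overlap. Of the 265 probes of tested miRNAs, 2.64% had male groups without overlap in either direction. The mean of the brighter probe was -2.57 ± 0.19 in M WT and -3.24 ± 0.19 in M c-Raf (SD, n = 6 each), a difference of -0.66 (SE 0.18).

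In females the brighter probe read -2.50, -2.26, -2.77, -3.05, -3.32 and -2.26 in F WT and -3.11, -4.01, -3.37, -3.50, -3.42 and -3.11 in F c-Raf. The groups overlapped through 1 array, F WT replicate 5 at -3.32, which was the lowest of its group. Of the 265 probes, 2.26% had female groups without overlap. The difference was -0.73 (SE 0.18) over all arrays and -0.85 (SE 0.17) without F WT replicate 5. The dimmer probe gave differences of -0.41 (SE 0.44) in males and -0.38 (SE 0.44) in females, with 6 of 24 arrays at the floor. With group means removed, the 2 miR-193b probes correlated at r = 0.252 over the 24 arrays (permutation p = 0.230, Spearman rho = 0.270, permutation p = 0.221, adjusted p over 4 such relations 0.230 and 0.221). Without the 2 arrays farthest from the median r was 0.149.

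**Figure D2:**
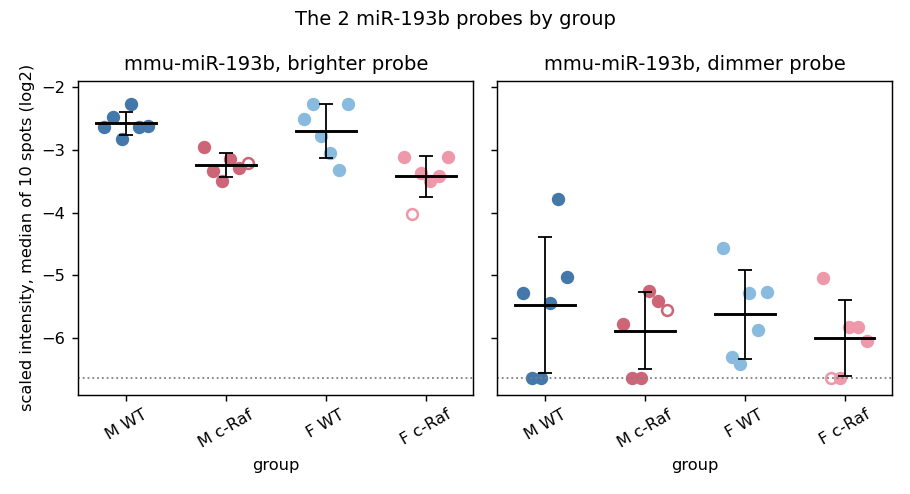
Scaled intensity (log2, y axis) of the brighter and the dimmer probe of mmu-miR-193b on each array by group (x axis), each the median of 10 spots. Filled points mark arrays on which miR-193b was detected, bars are the mean ± SD and the dotted line is the floor. With the brighter probe the highest M c-Raf array, at -2.95, is below the lowest M WT array, at -2.82, and with the dimmer probe 6 arrays lie at the floor and the groups overlap.

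Comparison within slides removed what the arrays of a slide had in common. Brightness was not common to a slide: M c-Raf and M WT had 1212 and 52.8 units on slide 4, and 34.9 and 107.1 on slide 6. How many of all tested miRNAs were lower on every slide was not counted. miR-193b was lower in the c-Raf array on 6 of 6 slides in males, by differences from -1.29 to -0.31, and on 6 of 6 slides in females, from -2.49 to -0.44. The brighter probe was also lower on all 6 slides in each sex, from -0.87 to -0.31 in males and from -1.75 to -0.10 in females. The smallest female difference was on slide 5, which holds F WT replicate 5. These signs hold for scaled levels. Before scaling, M c-Raf had a higher miR-193b median intensity than M WT on slides 3, 4 and 5. The values were 21.9 against 15.7, 77.5 against 5.92 and 43.4 against 27.4 units. It was lower on slides 1, 2 and 6. In females it was higher in c-Raf on slide 6 (10.2 against 7.95) and lower on slides 1 to 5. Within the 4 scans, the mean difference of miR-193b ranged from -1.01 to -0.66 in males and from -1.72 to -0.44 in females.

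For miR-365, of which a copy lies in the same cluster on chromosome 16, the c-Raf and WT groups overlapped in both sexes. The M WT arrays read -4.95, -4.68, -4.92, -4.14, -4.05 and -4.74, and the M c-Raf arrays -4.63, -4.64, -4.65, -4.63, -3.87 and -3.04. The last value, from the dimmest array, came without detection and stood above all others. The mean was -4.58 ± 0.39 in M WT and -4.24 ± 0.66 in M c-Raf (SD, n = 6 each), a difference of 0.34 (SE 0.27), which was 0.10 without M c-Raf replicate 6. The F WT arrays read -4.59, -4.93, -4.38, -4.58, -5.10 and -4.28, and the F c-Raf arrays -4.60, -5.01, -5.02, -4.59, -3.74 and -4.51. The female groups overlapped, at -4.64 ± 0.32 and -4.58 ± 0.47 (SD, n = 6 each), a difference of 0.07 (SE 0.27), which was -0.03 (SE 0.29) without F WT replicate 5. The 95% interval of the difference ran from -0.23 to 0.90 in males and from -0.50 to 0.63 in females. Changes within these limits were not told apart from no change. With this scaling the limits did not reach the miR-193b differences of -0.85 and -1.05, and miR-365 was detected on only 12 arrays. The female limits did include the -0.38 of the dimmer miR-193b probe, while the male limits did not include its -0.41.

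Within slides, miR-365 was lower in c-Raf on 1 of 6 slides in males and on 5 of 6 in females, where 2 of the 5 differences were -0.01. Its 2 probes were alike. They gave 0.47 (SE 0.27) and 0.27 (SE 0.30) in males and 0.12 (SE 0.27) and -0.08 (SE 0.30) in females. With group means removed, they correlated at r = 0.808 over the 24 arrays (permutation p = 0.00011, Spearman rho = 0.687, permutation p = 0.00099, adjusted p over 4 relations 0.00044 and 0.00396). Without the 2 farthest arrays r was 0.628, and it was 0.891 within scan 2 but -0.126 within scan 4.

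**Figure D3:**
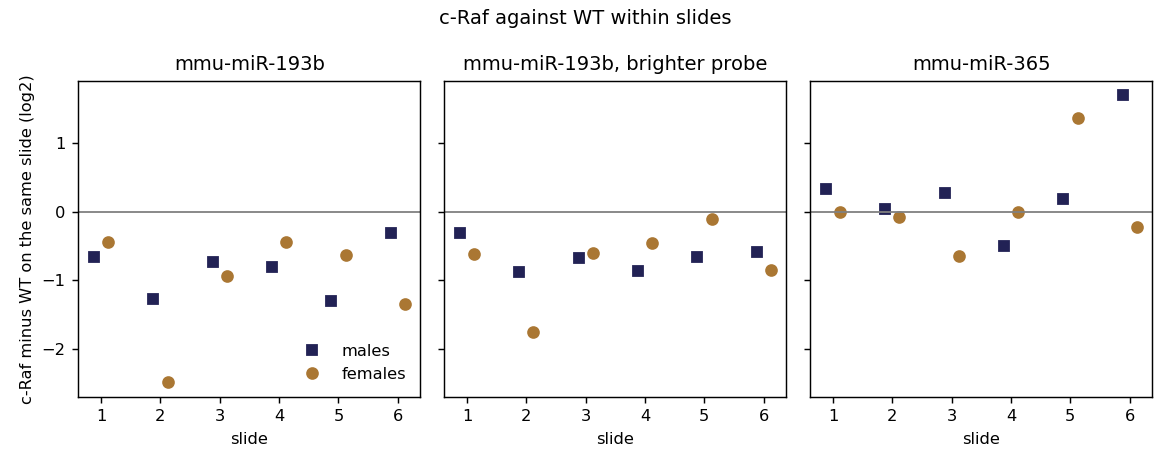
Difference of c-Raf minus WT between arrays of the same slide (log2, y axis) on each of the 6 slides (x axis), in males (squares) and females (circles), for mmu-miR-193b, its brighter probe and mmu-miR-365. With the scaling used here, all 12 differences of miR-193b and all 12 of its brighter probe lie below 0. Those of miR-365 lie on both sides of 0, from -0.64 to 1.70.

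A ratio taken within an array needs no scaling between arrays, so the change of miR-365 was set against that of miR-193b on each array. The log2 ratio of miR-365 to miR-193b was -1.27 ± 0.23 in M WT and -0.08 ± 0.50 in M c-Raf (SD, n = 6 each), an increase of 1.19 (SE 0.26). The lowest M c-Raf array, at -0.67, lay above the highest M WT array, at -0.98. In females the ratio was -1.27 ± 0.46 in WT and -0.15 ± 0.56 in c-Raf, an increase of 1.12 (SE 0.26), or 1.04 without F WT replicate 5, with overlap between a c-Raf array at -0.88 and a WT array at -0.61. With the brighter miR-193b probe in the ratio the increases were 1.00 and 0.79 (SE 0.28), and the groups overlapped in both sexes, in males with a WT array at -1.43 and a c-Raf array at -1.68. Only the change of the ratio is read, since levels of different probes are not comparable. The ratio contains the miR-193b values on which the members were chosen.

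**Figure D4:**
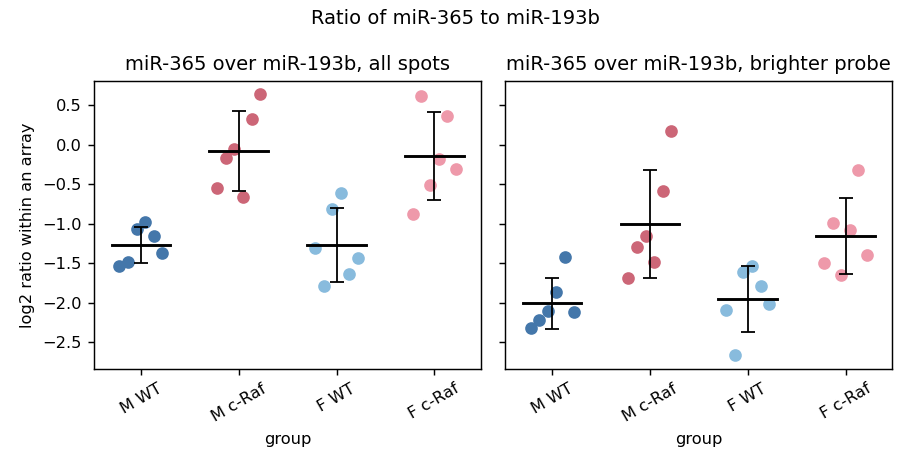
Log2 ratio of mmu-miR-365 to mmu-miR-193b within an array (y axis) by group (x axis), with the median over all miR-193b spots and with its brighter probe alone. Points are arrays and bars the mean ± SD. The mean ratio with all spots is -1.27 in M WT and -0.08 in M c-Raf, and -1.27 in F WT and -0.15 in F c-Raf.

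The size of the miR-193b difference followed the scaling of the arrays. With the 75th percentile over all spots it was -0.15 in males and -0.98 in females, in the deposited table -0.12 and -1.04, and without scaling 0.33 and -1.27. These scalings also moved the median of all 120 tested miRNAs, in males to 1.01, 0.90 (119 miRNAs) and 1.19. Relative to that median, miR-193b was lower by -0.98 in males and -1.08 in females with the scaling used here, and by -0.79 to -1.19 in males and -1.06 to -1.25 in females with the other scalings of processed or total signals. Scalings that only divide each array by a number move all miRNAs above the floor alike. The distance to the median could hardly change among them, so it is no separate support. Quantile normalization, which is not of that kind, gave -0.79 and -1.25. With normexp background correction of the median spot signals, which adds 50 units to signals of a few units, the difference was -0.79 in males and 0.43 in females, and relative to the median -0.01 and -0.23. miR-365 lay close to the median of all miRNAs in females under most scalings, and 0.03 to 0.85 above it in males. The brighter probe gave 0.03 in males and -0.61 in females with the percentile over all spots, and 0.52 and -0.95 without scaling. Its male groups overlapped under both.

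**Figure D5:**
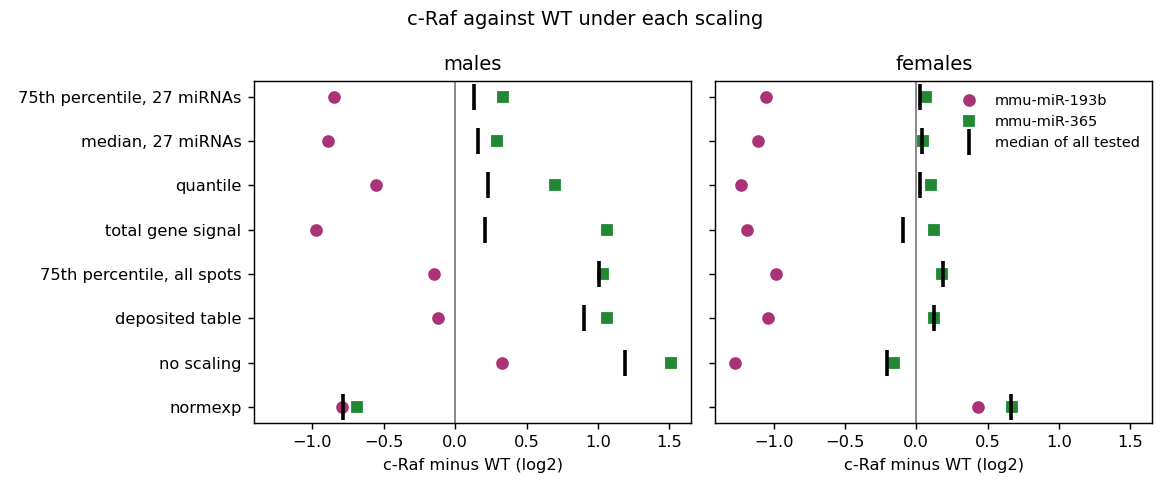
Difference of c-Raf minus WT (log2, x axis) in males and females under 8 ways to scale or correct the arrays (y axis), for mmu-miR-193b (circles), mmu-miR-365 (squares) and the median of all tested miRNAs (bars). The miR-193b points lie left of the median by 0.79 or more in all rows but normexp, also where the male values move to -0.15, -0.12 or 0.33. Rows that only divide each array by a number move all miRNAs alike, so their distance to the median could hardly change.

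Differences between the sexes, which were not used to choose the members, were tested with limma. Within WT, the difference of males minus females was 0.06 (SE 0.25, adjusted p = 0.886) for miR-193b and 0.06 (SE 0.27, adjusted p = 0.887) for miR-365. Without F WT replicate 5 these were 0.05 (adjusted p = 0.938) and -0.03 (adjusted p = 0.968). No miRNA was called in this comparison at an adjusted p under 0.05, 0% of 120, with 11 at an unadjusted p under 0.05 and 0 after adjustment by the test that the methods of the study name. Within c-Raf the differences were 0.26 (SE 0.25, adjusted p = 0.952) and 0.33 (SE 0.27, adjusted p = 0.952), where 2.5% of the 120 miRNAs were called. The difference of the c-Raf effect in males from that in females was 0.20 (SE 0.36, adjusted p = 0.872) for miR-193b and 0.27 (SE 0.39, adjusted p = 0.872) for miR-365. No miRNA was called for this difference in limma, 0% of 120, with 5 at an unadjusted p under 0.05. Leaving out F c-Raf replicate 1 gave 1 call and leaving out F WT replicate 5 gave 2, where in the latter case the values were 0.22 (adjusted p = 0.880) for miR-193b and 0.36 (adjusted p = 0.880) for miR-365. The 95% interval of the difference between the sexes in the c-Raf effect on miR-193b ran from -0.54 to 0.95, which includes effects as large as the c-Raf difference itself.

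Whether the members varied together was asked after removal of the group means, in a family of 6 relations. miR-193b and miR-365 levels correlated over the 24 arrays (Pearson r = 0.514, permutation p = 0.0157, adjusted 0.047, and Spearman rho = 0.570, permutation p = 0.00659, adjusted 0.0395). Without the 2 arrays farthest from the median of miR-193b r was 0.474. Within scan 2 it was 0.910 and within scan 4 it was -0.109, with 8 arrays each. These values were not tested, and 8 arrays with group means removed are too few to show that the scans differ. The permutations ran within groups and took no account of slide or scan, or of the brightness by which both levels were divided. A common divisor can by itself give a positive r, so this r does not show that the miRNAs varied together. Scans 1 and 3 had 4 arrays each, which is too few. With the brighter miR-193b probe r was 0.265 (permutation p = 0.179, adjusted 0.230).

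Array brightness was set against the level of each member, which is itself divided by brightness. That division can by itself give a negative r, and the permutations took no account of it. The p-values are therefore not read as showing a relation. The relation to log2 brightness was r = -0.399 for miR-193b (permutation p = 0.0363, adjusted 0.0545; Spearman rho = -0.473, permutation p = 0.0270, adjusted 0.0414) and r = -0.620 for miR-365 (permutation p = 0.00841, adjusted 0.0470; Spearman rho = -0.388, permutation p = 0.0866, adjusted 0.104). Without the 2 arrays farthest in brightness r was -0.395 and -0.354. Within scan 2 it was -0.723 and -0.733, and within scan 4 it was -0.013 and 0.108. The part of brightness in the relation between the members, and in their c-Raf differences, was not tested. The 3 relations of miR-193 rest on 2 arrays above the floor and are not read.

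The miRNAs whose levels followed those of a member most closely over the 24 arrays were then named, out of 118 and as a description, since the arrays share slides, scaling and groups. For miR-193b these were miR-214, of mesenchymal cells (r = 0.789), miR-486, abundant in red cells and muscle (r = 0.769), and miR-326 (r = 0.706). Relative to WT, c-Raf males had miR-214 at -1.03, miR-486 at -1.41 and miR-326 at -0.54. Among females the same differences were -0.69, -0.80 and -0.55. These values carry no p-value here, because r was taken over c-Raf and WT arrays together. Since miR-193b was taken up for its lower c-Raf level, closeness to it already favoured miRNAs lower in c-Raf. The miRNAs nearest to miR-365 were miR-715 (r = 0.632), miR-425 (r = 0.625) and miR-199b* (r = 0.624), detected on 6, 6 and 9 arrays. For miR-193 they were miR-1224 (r = 0.804), miR-674* (r = 0.756) and miR-324-3p (r = 0.648), which again rests on 2 arrays above the floor.

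Some markers of other cells also differed between c-Raf and WT. Of the fibroblast and smooth muscle list, 2 of 4 miRNAs were tested, and miR-214 was lower in c-Raf over both sexes (-0.86, SE 0.14, limma adjusted p = 0.000153) while miR-199a-3p was 0.21 (SE 0.13, adjusted p = 0.293). In males the summed level of that list ran from -1.81 to -1.07 on WT arrays and from -2.15 to -1.86 on c-Raf arrays. In females it ran from -2.08 to -1.48 on WT arrays and from -2.09 to -1.91 on c-Raf arrays. miR-143 and miR-145 of smooth muscle were detected on 3 arrays each. Of the red cell list, miR-486 was lower (-1.10, SE 0.23, adjusted p = 0.00213), miR-451 was 0.38 (SE 0.28, adjusted p = 0.389) and miR-144 was not detected. The summed red cell level was -3.19 to -0.94 in M WT, -3.29 to -2.44 in M c-Raf, -3.04 to -1.98 in F WT and -3.29 to -2.34 in F c-Raf. Of the 5 striated muscle markers, miR-1, miR-206 and miR-208a were detected on no array, and neither of the 2 tested was called. The epithelial miR-200a, miR-200b and miR-429, 3 of 4 tested, were higher over both sexes (0.73, 0.75 and 0.73), where 18.3% of all 120 miRNAs were called. miR-200c was not called, at 0.23 (SE 0.19, limma adjusted p = 0.461). The summed epithelial list was -0.71 to 0.47 in M WT, -0.58 to 0.98 in M c-Raf, -0.27 to 0.69 in F WT and 0.17 to 0.90 in F c-Raf. The endothelial miR-126-3p was also higher (0.75, adjusted p = 0.0217), and none of 3 tested leukocyte and none of 3 tested ciliated cell markers was called, against the same 18.3%. With the percentile over all spots, without scaling, in the deposited table and with normexp, every one of these marker calls was lost, at adjusted p from 0.161 to 0.994. With the median of the 27 miRNAs the calls of miR-200a, miR-200b, miR-429 and miR-126-3p were lost, and with quantile normalization those of miR-200b and miR-126-3p. The part of these cell types in the miR-193b difference was not tested.

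Other miRNAs known to repress cyclin D1, a target that the miR-193 and miR-365 members have in common, were mostly not called. Of a list of 11 (miR-15a, miR-15b, miR-16, miR-195, miR-497, miR-322, miR-503, miR-17, miR-20a, miR-34a and let-7b), 9 were tested, and miR-503 and miR-17 were detected on no array. None of the 9 was called in males, where limma called 2.5% of the 120 miRNAs, and none in females, where it called 5%. Over both sexes 1 was called higher and none lower, against 18.3% of all 120 called. It was miR-16, of the miR-15 family (0.93, SE 0.27, adjusted p = 0.0217), whose call was lost with 5 other scalings or background corrections at adjusted p from 0.0674 to 0.986. The median difference of the list was 0.28 in males and 0.24 in females, against 0.13 and 0.03 over all 120. The lowest was let-7b, at -0.38 (SE 0.14, adjusted p = 0.0631) over both sexes, which was not called.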

How the data were processed

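Total RNA from the lungs of 24 mice, from dissected cells by the labels, was hybridised with Cy3 to 1-colour miRNA arrays, 6 per group. The authors deposited scanner files with a background-subtracted intensity per spot (Feature Extraction 10.7.3.1 per the file headers), not scaled between arrays, and a table of processed intensities, which for miR-193b and miR-365 is proportional, within 0.0758%, to the median spot intensity over the 75th percentile of all spots; it had no value for miR-193. Deposited names were matched by array and all table columns had a sample. Spots were divided by array brightness, floored at 0.01, summarised as the median and log2 transformed. Mouse miRNAs detected on at least 6 arrays were tested, 120 in all, with limma 3.58.1 in R 4.3.3 (1 mean per group, two-sided, 1.8 prior and 20 residual degrees of freedom, Benjamini-Hochberg over the 120). For single probes the 265 probes of these miRNAs were fitted alike. Correlations used 100000 permutations within groups, two-sided. Scripts were tested on simulated data. Sequences came from RefSeq; the array design is on mm9, so no coordinates were carried over. The members, lists and tests were chosen with earlier results of these data known. Named are the members, star forms, the 3 nearest miRNAs of each member, and list members where a count needs them. Precision rests on the 6 arrays of a group; no counting interval applies.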

Additional observations from a re-analysis of the deposited data

Results flagged for a closer look

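No array was singled out among the 24 groups of 6 values examined (2 miRNAs and 4 probes in 4 groups): in none was the gap of the highest or lowest array to its neighbour above 0.625 of the range of its group. Chance alone singles out about 1 group in 20.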

How the results depend on the processing

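For the c-Raf and sex differences of miR-193b and miR-365 up to 19 other settings were tried besides leaving out arrays; probe means, single probes and the total gene signal were chosen after seeing the data. No sex difference or sex difference of the c-Raf effect passed an adjusted p of 0.05 under any setting (smallest 0.0932). With the percentile over all spots, no scaling and the deposited table, the male miR-193b difference was -0.15, 0.33 and -0.12, and that of miR-365 1.04, 1.52 and 1.06; the sex difference within WT was -0.41, -0.64 and -0.42 for miR-193b and -0.41, -0.64 and -0.42 for miR-365. Without scaling, miR-193b over both sexes was -0.47 and miR-365 in females -0.16. Quantile normalization gave -0.19 (miR-193b) and -0.17 (miR-365) for sex within WT. With a floor of 0.1, miR-193b was -0.28 in males, -0.24 in females and -0.26 over both, its sex difference of the c-Raf effect -0.039 and that within c-Raf -0.011, and the change of the ratio 0.33 in males and 0.24 in females; this floor lies above many of the values. With normexp, miR-193b was 0.43 in females and -0.18 over both, with a sex difference of the c-Raf effect of -1.22 and within c-Raf of -0.86; miR-365 was -0.69 in males, 0.67 in females and -0.010 over both, with -1.36 and -0.90; the ratio changed by 0.10 and 0.24. The mean over probes gave -0.56 for miR-193b in females and 0.57 for the ratio there, the mean of log2 spots 0.63 for that ratio and -0.0027 for miR-365 in females. The total gene signal gave 1.06 for miR-365 in males, -0.36 for its sex difference within WT and 2.04 for the male ratio. The cause of these shifts was not tested.

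The relation of miR-193b to miR-365 was r = 0.908 with the percentile over all spots, 0.913 without scaling, 0.265 with the brighter probe, and 0.910 and -0.109 within scans 2 and 4. Brightness against miR-193b gave 0.660 and 0.932 under these scalings and -0.723 and -0.013 within the scans. Brightness against miR-365 gave 0.661 and 0.925, 0.108 within scan 4, and -0.354 without the 2 farthest arrays. With the percentile over all spots and without scaling, levels thus still rose with brightness. The r between the members under these settings is not read as a closer relation.

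Leaving out 1 array at a time, miR-193b ranged from -0.96 to -0.76 in males, -1.19 to -0.81 in females and -1.02 to -0.83 over both, and miR-365 from 0.10 to 0.44, -0.10 to 0.16 and 0.08 to 0.25. The sex difference of the c-Raf effect ranged from -0.039 to 0.34 and from 0.03 to 0.44, that within WT from -0.054 to 0.17 and from -0.043 to 0.14, and that within c-Raf from 0.02 to 0.41 and from 0.09 to 0.50. The ratio change ranged from 1.04 to 1.30 in males and 0.96 to 1.26 in females. The correlations ranged from 0.460 to 0.563 for the members, and from -0.536 to -0.308 and -0.706 to -0.365 for brightness, the last without M c-Raf replicate 6.

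The replicate number as a block left the miR-193b differences at -0.85 and -1.05. Same-numbered arrays lay on 1 slide, and their deviations from the group means correlated above 0.1 in 23 of 36 pairs, from 2 of 6 between M WT and M c-Raf to 6 of 6 between M c-Raf and F WT. The block called 3, 10 and 28 miRNAs for males, females and the pooled sexes, against 3, 6 and 22. Over the settings with all arrays the counts ran from 0 to 7, 0 to 10 and 0 to 32, and 0 to 4 for sex within c-Raf. Leaving out 1 array gave 1 (without M WT replicate 4) to 7 (M c-Raf replicate 6) in males, 2 (F WT replicate 2 or 6) to 8 (M WT replicate 4) in females, 14 (F c-Raf replicate 2) to 24 (M WT replicate 1) over both, and 1 (F c-Raf replicate 2) to 6 (M WT replicate 4) for sex within c-Raf. The methods' t-test was run on the 120 tested miRNAs with the scaling used here, not that of the deposited table, so it does not repeat the study's procedure. It gave 18 miRNAs in males and 20 in females at an unadjusted p under 0.05. With the methods' limits on fold and signal added there were 0 and 2, and after Benjamini-Hochberg 0 and 0. Low signal limits all members: the floor was 0.349 units on the dimmest and 12.1 on the brightest array.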
